A study of Mus musculus with 4 samples.

Results

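The 4 arrays of sorted B16 tumor vessel cells fell into 2 sides that crossed the labelled clone classes. One side, called melanoma-rich here, was the expansion array of tumor A and the extinction array of tumor B, selected on high measured signal of the pigment cell genes Dct, Pmel and Tyr. The other, called endothelial-rich, was the extinction array of tumor A and the expansion array of tumor B, selected on high measured signal of the endothelial genes Cdh5, Kdr and Tek. The genes described were those at least 2-fold apart (1 on the log2 scale) in the same direction in both within-tumor pairs, melanoma-rich against endothelial-rich. There were 1598 such genes among 18193 with 1 probe set chosen: 571 were higher on the melanoma-rich arrays and 1027 higher on the endothelial-rich arrays.

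Because measured values chose the sides, the differences between them are given as a description with no test. Every gene of these arrays counts as used by that choice, also those other than the 6 genes named.

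All 4 arrays came from C57BL/6 mice carrying a multicolor Cre reporter, a transgene that lets Cre recombinase mark a cell and its descendants with 1 of several colors. The deposited files do not settle whether each array carries its own label, so every contrast of clone classes or tumors below holds for the arrays as labelled. The labels name tamoxifen as the inducer, and the Cre driver was not given in the sources used here. B16, a transplantable pigmented melanoma line of C57BL/6 origin, had been inoculated 2 weeks before the tumors were dissociated, and cells that were CD45-, CD31+ and CD144+ were sorted by FACS, which selects endothelium and leaves out leukocytes. Expansion is the most frequent color clone of a tumor and extinction the least frequent. Each class in each of the 2 tumors gave 1 array, so a within-tumor pair has no replicate, and the spread between the pairs is the only error available. The sources used here give neither age nor sex of the animals.

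The deposited values are log2 levels made with RMA, a method that corrects background, normalizes the arrays to each other and joins the probes of each probe set into 1 value. Values are printed with tumor A before tumor B on each side: expansion A and extinction B for the melanoma-rich side, extinction A and expansion B for the endothelial-rich side. A difference is the melanoma-rich minus the endothelial-rich level of 1 gene. Levels of different genes are not comparable, since each probe set has its own response. Array medians lay between 5.73 and 5.83, and arrays carry no read depth, so their number limits the precision.

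Melanocytes and pigmented melanomas make melanin in melanosomes, organelles of the lysosome family. Tyrosinase and its relatives build the pigment there, and MITF, a basic helix-loop-helix factor that works with SOX10 and PAX3, drives their genes through E-boxes with the letters CATGTG. Endothelial cells line vessels and depend on VEGF, angiopoietin and Notch receptors, on VE-cadherin junctions, and on ETS and SOXF transcription factors. Fibroblasts and pericytes around the vessels make collagens and other matrix.

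The letters of 3 pigment gene promoters are shown because the pigment genes had the largest median difference of the gene lists, apart from the 3 marker genes they include, and that of the VEGF receptor Kdr for contrast. Each is the 250 bases before the transcription start in RefSeq, assembly GRCm38.p6, written 5′ to 3′ on the gene's strand. In the pigment genes capitals mark CATGTG or its reverse complement CACATG, and in Kdr they mark GGAA or TTCC, the core letters that ETS factors bind. The regions are chr7:87493513-87493762 (minus strand) for Tyr, chr4:80833963-80834212 (plus strand) for Tyrp1, chr14:118052247-118052496 (minus strand) for Dct and chr5:75978456-75978705 (minus strand) for Kdr.
Tyr: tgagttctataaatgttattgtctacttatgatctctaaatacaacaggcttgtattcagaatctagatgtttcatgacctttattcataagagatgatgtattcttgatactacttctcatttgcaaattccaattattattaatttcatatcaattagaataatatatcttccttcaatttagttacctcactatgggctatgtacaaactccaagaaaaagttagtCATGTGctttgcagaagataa
Tyrp1: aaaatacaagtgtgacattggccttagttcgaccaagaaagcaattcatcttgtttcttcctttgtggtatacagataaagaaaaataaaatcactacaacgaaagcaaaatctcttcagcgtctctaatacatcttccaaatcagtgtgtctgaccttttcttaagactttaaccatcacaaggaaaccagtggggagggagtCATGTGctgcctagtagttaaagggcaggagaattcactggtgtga
Dct: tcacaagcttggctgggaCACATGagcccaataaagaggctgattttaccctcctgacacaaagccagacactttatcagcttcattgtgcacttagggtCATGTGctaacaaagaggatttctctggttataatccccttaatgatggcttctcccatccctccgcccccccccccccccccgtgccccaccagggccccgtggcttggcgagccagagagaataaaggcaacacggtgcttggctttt
Kdr: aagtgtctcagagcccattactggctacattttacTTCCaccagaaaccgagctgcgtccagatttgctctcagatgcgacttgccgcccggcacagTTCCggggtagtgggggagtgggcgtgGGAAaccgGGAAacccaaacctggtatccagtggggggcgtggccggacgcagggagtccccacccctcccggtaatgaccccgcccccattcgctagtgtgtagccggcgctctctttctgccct

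The first base of the CATGTG match lay 21 bases before the start in Tyr and 46 in Tyrp1, and the matches in Dct lay 232 and 150 bases before it. Searched on both strands, CATGTG occurred in 5 of 7 promoters of the pigment gene list (6 genes in the table, of which Dct, Oca2, Trpm1, Tyr and Tyrp1 had a match) and in 8.79% of 18109 promoters of all genes measured. Its share was 9.09% of 583 promoters of genes higher on the melanoma-rich arrays and 7.88% of 1003 promoters of genes higher on the endothelial-rich arrays. The longer TCATGTG, which contains it, was in 4.29%, 1.89% and 2.24% of the same sets, the last being all genes measured. GGAA occurred in 93.1% of all genes' promoters and in 13 of 14 promoters of the pan-endothelial list, and GGAAGT, which contains it, in 21.2% and in 6 of 14. Of the 571 and 1027 genes, 442 and 749 matched a promoter entry. A match describes letters in this window and is not a measured binding site.

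The sides differed in number and in size of difference. Genes higher on the melanoma-rich arrays made up 3.14% of all genes and genes higher on the endothelial-rich arrays 5.65%, which are also the backgrounds for the counts in each list. The melanoma-rich genes were fewer and further apart: 189 were at least 4-fold apart in both pairs, 90 at least 8-fold, 39 at least 16-fold and 9 at least 32-fold. The endothelial-rich genes reached 140 at 4-fold and 7 at 8-fold, with 0 at 16-fold. Median sizes of the difference, tumor A first, were 1.93 and 1.73 for the former and 1.64 and 1.58 for the latter. The median over all genes was -0.04 and -0.07.

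**Figure D1:**
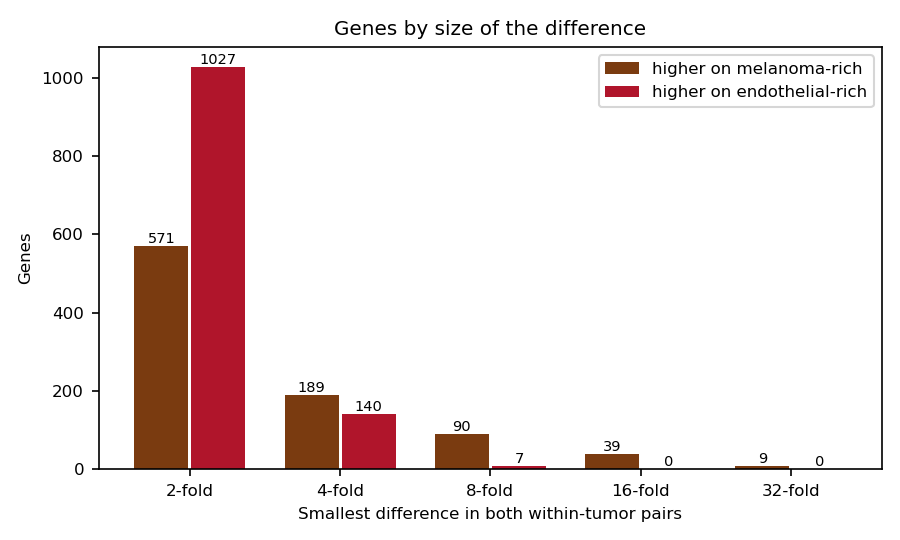
Number of genes (y axis) at least 2-, 4-, 8-, 16- or 32-fold apart in both within-tumor pairs (x axis), brown for genes higher on the melanoma-rich arrays and red for genes higher on the endothelial-rich arrays. The red bar is the taller at 2-fold (1027 against 571) and the brown bar the taller from 4-fold on (189 against 140).

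Single pairs gave more genes. The tumor A pair had 5.89% of genes past 2-fold toward the melanoma-rich array and 10.4% toward the endothelial-rich array, and the tumor B pair 4.77% and 9.68%. Paired by clone class in place of side, 0.011% of genes were at least 2-fold higher in expansion in both tumors and 0.077% lower. Paired by tumor, 0.0715% were at least 2-fold higher in tumor B in both classes and 0.055% lower. Direction was the same in both within-tumor pairs for 68.1% of all genes. Of the 18193 genes, 5206 were higher on the melanoma-rich array in both pairs and 7180 on the endothelial-rich array. These are the backgrounds for the counts of direction in each list. The arrays of the 2 sides did not overlap for any of the 571 genes, and they overlapped for 28 of the 1027, among them the complement regulator Cd55 at 4.92 and 6.99 against 6.33 and 8.92. Nearly complete separation follows from the rule. Over all genes the sides did not overlap for 22.7% in the melanoma-rich direction and 32.5% in the endothelial-rich direction.

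**Figure D2:**
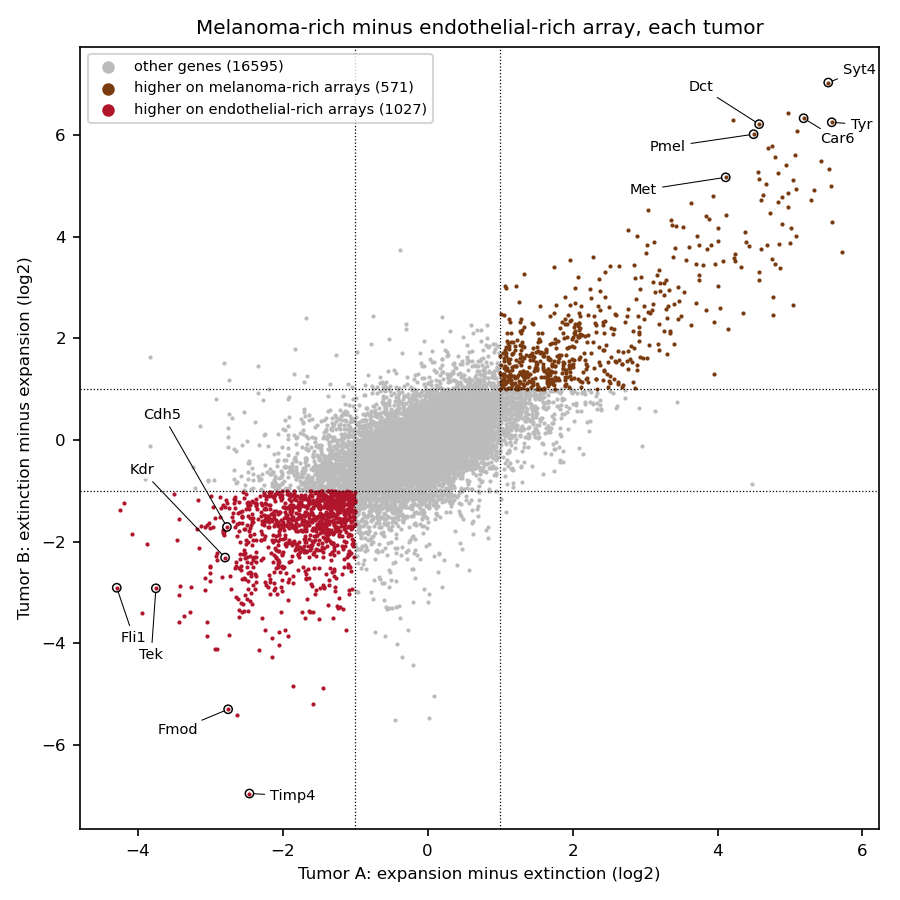
Each point is 1 of 18193 genes, with the log2 difference of the melanoma-rich minus the endothelial-rich array in tumor A on the x axis and in tumor B on the y axis. Dotted lines mark 2-fold, brown and red points are the 571 and 1027 genes past them in both tumors, and 12 circled genes are named. The brown cloud reaches differences above 5 in both tumors (Tyr, Syt4, Car6), and Timp4, at -2.46 and -6.96, lies apart at the bottom.

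At the threshold itself, the melanoma-rich genes just inside were Bbs2, at 1.54 in tumor A and 1.00 in tumor B, Renbp, at 1.51 and 1.00, and Palm2, at 1.00 and 1.65. Just outside lay Pak3, at 1.98 and 0.9996, Mrpl44, at 0.9993 and 1.09, and 2310015A10Rik, at 1.16 and 0.9983. On the endothelial-rich side Parva, Triap1 and Irf7 were just inside and Trim34a, Klf5 and Fabp4 just outside, the last at -1.39 and -0.9984.

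The pigment gene list had the largest median difference of the lists, apart from the 3 marker genes it includes. Single genes outside it were as far apart, such as Syt4 with a mean difference of 6.28 beside 5.92 for Tyr. All 10 measured genes of the pigment enzyme and melanosome protein list were higher on the melanoma-rich arrays, with medians of 4.69 (tumor A) and 5.63 (tumor B). Dct, the dopachrome tautomerase, was at 14.36 and 13.84 on the melanoma-rich arrays and at 9.79 and 7.62 on the endothelial-rich arrays. Tyr, the rate-limiting enzyme of melanin synthesis, was at 11.85 and 10.55 against 6.27 and 4.30. Both melanoma-rich arrays were far above both others, and of the latter extinction A was the higher.

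The same order held for most of the list. Tyrp1, a further melanin synthesis enzyme, was at 13.80 and 13.61 against 9.59 and 7.31, and the melanosome matrix protein Pmel at 14.40 and 13.82 against 9.90 and 7.80. The melanosomal transporter Slc45a2 was at 13.00 and 12.09 against 7.58 and 6.59, and Mlana, a melanosome membrane protein, at 12.99 and 12.35 against 7.45 and 7.01. Within the endothelial-rich side 9 of the 10 genes were higher on extinction A than on expansion B, and within the melanoma-rich side 9 of 10 were higher on expansion A than on extinction B. The exceptions were Gpnmb, a melanosome glycoprotein also made by macrophages, at 8.76 and 9.09 on the endothelial-rich side, and the ion channel Trpm1, at 11.69 and 11.78 on the melanoma-rich side.

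Transcription factors of the melanocyte lineage split: 6 of 12 measured were higher on the melanoma-rich arrays and 1, Msx1, on the endothelial-rich arrays. The master regulator Mitf was at 12.29 and 11.16 against 8.84 and 8.77, and the neural crest factor Sox10 at 11.34 and 9.46 against 6.99 and 6.95. Pax3 was at 11.86 and 11.43 against 7.07 and 5.87, and Tfap2a at 10.51 and 9.67 against 6.60 and 5.83. These genes did not overlap between the sides, which held for all 571 genes picked by the rule and for 22.7% of all genes in that direction. Foxd3 and Tfap2b stayed at or under 5.03 on every array, below the median of all probe sets (5.83).

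Melanosome transport genes were higher on the melanoma-rich arrays for 8 of 19 and on the other side for 0. The small GTPase Rab27a, which tethers melanosomes to myosin, was at 10.33 and 9.58 against 5.70 and 4.74. Its effector Mlph was at 9.62 and 9.13 against 4.64 and 4.26, and the motor Myo5a at 12.02 and 11.02 against 9.27 and 8.58. Rab38, which sorts enzymes to melanosomes, was at 12.43 and 11.68 against 7.83 and 7.92. All 19 genes of the list were higher on expansion A than on extinction B. All 12 fatty acid synthesis genes had that order too, and its share over all genes was not counted. Rab32, the close relative of Rab38, was at 7.19 and 7.06 against 7.29 and 7.96 and was not among the genes 2-fold apart.

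Receptors of the lineage were mixed. Mc1r, the melanocortin receptor, was at 10.59 and 10.34 against 5.70 and 5.55, and the neuregulin receptor Erbb3 at 9.33 and 9.27 against 5.25 and 5.75. The HGF receptor Met, at 13.41 and 13.17 against 9.29 and 8.001, was the third gene on that side. Ednrb, a receptor both melanocytes and endothelium express, went the other way, at 8.74 and 9.49 against 10.97 and 10.75, as did the growth factor receptor Igf1r, at 7.12 and 7.45 against 8.98 and 8.75. No other probe set of Igf1r was 2-fold apart in both tumors. The brightest of them differed by -0.85 and -0.96 and the next by -1.10 and -0.61, while the dimmer ones had opposite directions in the tumors. The remaining 8 of 13 were in neither group.

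Beyond pigment, the 25 genes furthest apart in both pairs included several outside the lists. The synaptic vesicle protein Syt4 had the largest mean difference of the 571, 6.28, at 12.97 and 12.37 against 7.44 and 5.33. Carbonic anhydrases Car6 and Car14 were at 11.64 and 11.84 against 6.45 and 5.50 and at 12.13 and 11.28 against 7.30 and 6.60. The glutamine transporter Slc38a1 was at 11.81 and 11.65 against 6.72 and 5.57, and the glutathione transferase Gsta2 at 11.47 and 10.92 against 6.50 and 4.48. The glycine receptor subunit Glrb, the gap junction gene Gjb2, the nucleoporin Nup210, the plexin Plxnc1 and the cancer-testis family gene Mageb16 were in the same group, with mean differences of 5.26, 5.01, 4.85, 5.05 and 5.01. For all 25 the melanoma-rich array was above its partner by more than 4 on the log2 scale in both tumors.

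**Figure D3:**
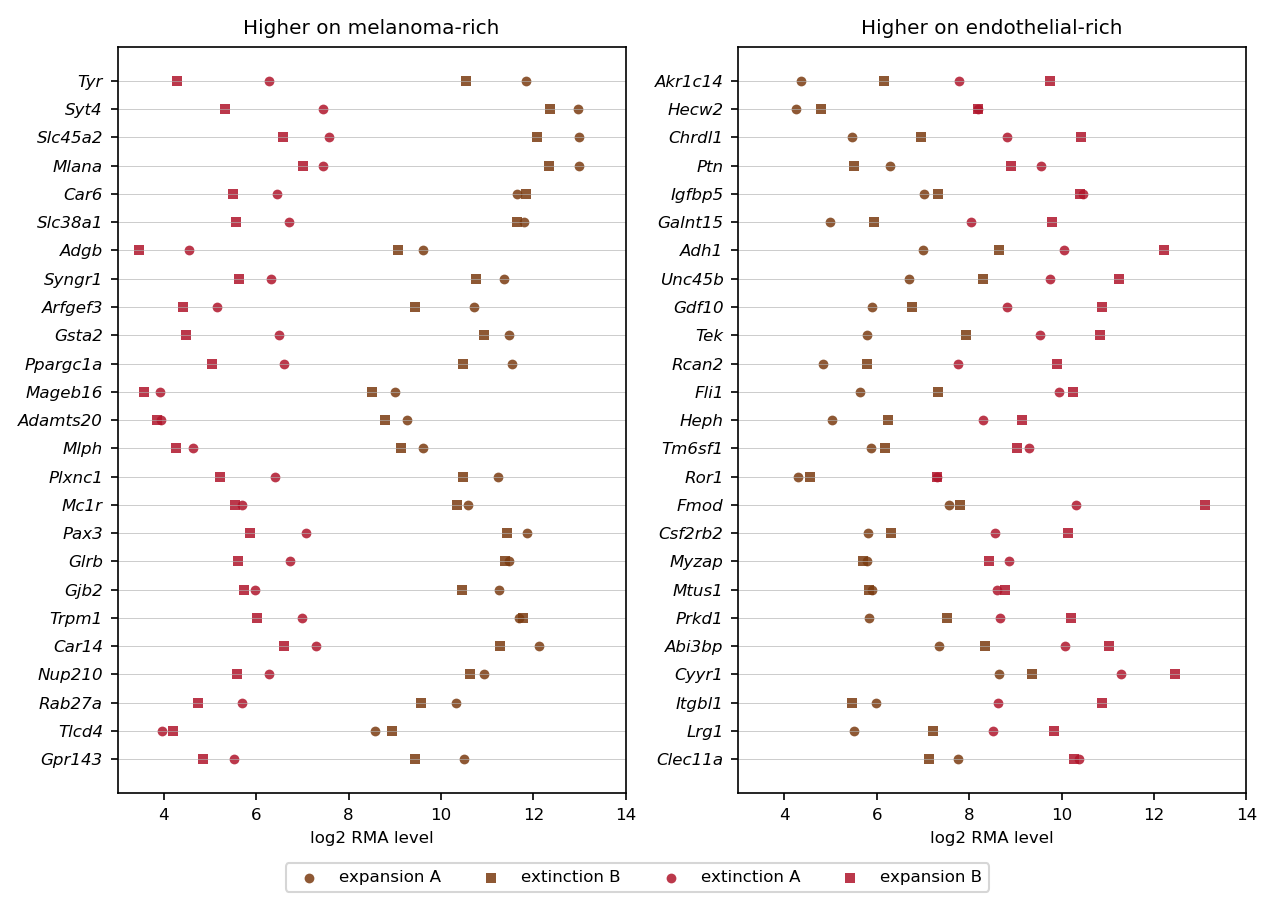
Log2 RMA level (x axis) on each of the 4 arrays for the 25 genes furthest apart in both pairs on each side, brown for melanoma-rich and red for endothelial-rich arrays, circles for tumor A and squares for tumor B. Brown and red symbols are apart in every line. In the left panel the red square (expansion B) is mostly left of the red circle (extinction A), as for Tyr at 4.30 against 6.27, and in the right panel the brown square (extinction B) is mostly right of the brown circle (expansion A), as for Fli1 at 7.33 against 5.65.

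Lipid and biosynthetic genes showed smaller differences toward the same side. In cholesterol synthesis 7 of 19 genes were higher on the melanoma-rich arrays and 0 on the others, and 18 of 19 had that direction in both tumors, with medians of 1.25 and 0.84. Squalene epoxidase (Sqle) was at 11.51 and 10.56 against 9.52 and 8.56, and lanosterol synthase (Lss) at 9.75 and 9.17 against 7.90 and 6.85. Both melanoma-rich arrays were above both others for each, with expansion B the lowest. The rate-setting Hmgcs1 was at 13.47 and 13.04 against 12.89 and 12.77, in the same order but under 2-fold.

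Fatty acid synthesis gave 4 of 12 against 0, led by the fatty acid activating enzyme Acsl3 at 11.36 and 10.15 against 8.17 and 7.87 and by the synthase Fasn at 12.29 and 11.24 against 9.48 and 9.39. Serine, one-carbon and amino acid stress genes gave 6 of 17 against 0, and 16 of 17 were higher on the melanoma-rich array in both tumors. Phgdh, which opens serine synthesis, was at 11.94 and 11.59 against 9.44 and 8.97, and the stress kinase relative Trib3 at 11.79 and 11.62 against 8.26 and 7.42. The upstream factor Atf4 was at 12.29 and 12.18 against 12.35 and 12.33, on the other side of the comparison and by little.

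Within energy metabolism, isoforms of 1 enzyme differed by unlike amounts. In glycolysis 3 of 15 were higher on the melanoma-rich arrays. The lactate dehydrogenase subunit Ldhb was at 12.06 and 11.36 against 7.92 and 9.18, while its partner Ldha was at 13.32 and 13.15 against 13.13 and 12.80. The aldolase Aldoc was at 10.61 and 9.35 against 6.75 and 5.58, while Aldoa was at 13.51 and 13.21 against 13.04 and 12.30. Among 26 respiratory chain genes only the regulator Ppargc1a, a coactivator of mitochondrial genes, was 2-fold apart in both tumors, at 11.54 and 10.48 against 6.60 and 5.06. The median of that list was 0.23 and 0.18, a share of 1 in 26 near the background of 3.14%.

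Few cell cycle genes were in either group. Of 28 mitosis genes 0 were in the melanoma-rich group and 1, the kinesin Kif20a, in the other, with medians of -0.60 (tumor A) and 0.28 (tumor B). DNA replication gave 2 of 26, the helicase subunits Mcm2, at 11.21 and 10.65 against 9.89 and 8.82, and Mcm7, with a mean difference of 1.39. These lists divided the 2 endothelial-rich arrays: all 28 mitosis genes and 24 of 26 replication genes were higher on extinction A than on expansion B. That order was not particular to them, as 18 of 19 cholesterol synthesis and 22 of 26 respiratory chain genes had it too. Other lists had the reverse order, such as interferon response with 23 of 25. The share over all genes was not counted, for these or for any other order of 2 arrays within a side given here. The proliferation gene Mki67 was at 11.38 on extinction A and 10.31 on expansion B, and at 11.28 and 11.25 on the melanoma-rich arrays. Ribosome biogenesis gave 2 of 20 and purine and pyrimidine synthesis 0 of 15.

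Endothelial genes made up the reverse pattern. Of 23 measured pan-endothelial genes 20 were higher on the endothelial-rich arrays and 0 on the others, with medians of -2.40 (tumor A) and -1.59 (tumor B). VE-cadherin (Cdh5, the CD144 of the sort) was at 8.69 and 9.80 on the melanoma-rich arrays and at 11.46 and 11.51 on the endothelial-rich arrays. CD31 (Pecam1), the other sorted marker, was at 6.16 and 6.90 against 8.82 and 8.61. Both sorted markers were lower on the melanoma-rich arrays without overlap, as were 32.5% of all genes. Cdh5 helped to choose the sides, so its direction was given in advance. The same holds for Kdr and Tek, which are also among the 20 pan-endothelial genes. Neither marker's level measures how many sorted cells were endothelial. In such bulk samples fewer cells of a type and less RNA per cell cannot be told apart.

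Other members had the same split. The angiopoietin receptor Tek was at 5.78 and 7.92 against 9.53 and 10.84, and the VEGF receptor Kdr at 8.82 and 9.75 against 11.62 and 12.06. The tight junction gene Cldn5 was at 7.43 and 8.85 against 9.71 and 12.34. Expansion A was below extinction B for 21 of the 23, and expansion B above extinction A for 18. The 3 genes not in the group were Flt1, at 9.18 and 10.46 against 10.90 and 11.32, Vwf, at 10.04 and 9.67 against 10.08 and 10.91, and the phosphatase Ptprb, which was higher on the melanoma-rich arrays at 12.36 and 12.26 against 11.36 and 11.86.

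Endothelial transcription factors were higher on the endothelial-rich arrays for 17 of 24, with medians of -1.48 and -1.55. The ETS factor Fli1 was at 5.65 and 7.33 against 9.94 and 10.24, and its relative Erg at 6.66 and 7.98 against 9.82 and 10.11. Sox17, an arterial SOXF factor, was at 6.87 and 8.52 against 9.43 and 11.26, and the homeobox factor Meox2 at 7.74 and 7.97 against 10.40 and 10.50. Among the Sox genes, a family picked after the values were seen, 3 (Sox7, Sox17, Sox18) were in the endothelial-rich group and 4 (Sox5, Sox6, Sox10, Sox11) in the melanoma-rich group, of 19 measured. The broadly expressed Ets1 was at 11.61 and 11.72 against 11.98 and 11.78.

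Among vascular ligands and receptors, 8 of 17 genes of the VEGF, angiopoietin and apelin list were higher on the endothelial-rich arrays and 1 on the other side. The ligands went their own ways. Vegfd was at 7.53 and 9.98 against 9.96 and 11.59, with extinction B slightly above extinction A, and Angpt1 at 5.16 and 5.73 against 7.58 and 7.29. Vegfb, which signals through Flt1, was the one higher on the melanoma-rich arrays, at 8.33 and 8.04 against 6.90 and 6.39, and Vegfa was at 9.51 and 9.09 against 9.15 and 8.69.

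The Notch list gave 6 of 15 genes on the endothelial-rich side: the receptors Notch1 and Notch4, the ligand Dll4 and the targets Hes1, Hey1 and Nrarp. Notch4 was at 8.51 and 9.59 against 11.17 and 10.70. Arterial genes gave 5 of 14, venous genes 4 of 9 and lymphatic genes 3 of 8, though the lymphatic factor Prox1 and the receptor Lyve1 stayed at or under 5.36 on every array. Ackr1, a chemokine-binding receptor of venules, was at 6.58 and 7.55 against 8.52 and 11.42. Capillary and fatty acid uptake genes gave 9 of 15, and 13 of 15 were higher on expansion B than on extinction A. Cd36, the fatty acid receptor, was at 7.46 and 9.10 against 10.03 and 12.48. Timp4, a metalloproteinase inhibitor, had the largest mean difference of the 1027, -4.71, at 4.39 and 5.06 against 6.84 and 12.02, a value set mostly by expansion B. Both low levels of Timp4 lie under the median of all probe sets, so the size is imprecise. Its other probe set was at 5.83 and 5.43 against 5.93 and 9.51, apart by 2-fold in tumor B alone. Both arrays of the low side were under that median for 123 of the 1027 genes (12.0%) and for 113 of the 571 (19.8%).

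Tip cell genes, which mark sprouting endothelium, gave 6 of 17 and differed by tumor, with medians of -2.00 (tumor A) and -0.49 (tumor B). The chemokine receptor Cxcr4 was at 6.51 and 8.99 against 10.34 and 7.37, with the lowest array on each side in a different tumor. In 13 of 17 genes extinction A was above expansion B. The vasodilator peptide Adm, one of the 6, was at 10.27 and 12.01 against 12.42 and 13.47.

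Junction genes gave 8 of 19, caveolae and vesicle genes 8 of 12 and endothelial G protein-coupled receptors 9 of 17. The caveolar coat gene Cavin1 was at 8.43 and 10.27 against 11.04 and 11.90 on the probe set used. The dimmer probe sets of Cavin1 differed by -0.03 and -0.27 and by -0.18 and 0.23. The sphingosine phosphate receptor S1pr1 was at 6.12 and 7.17 against 8.70 and 9.17. Leukocyte adhesion gave 8 of 13 with 1 on the other side. E-selectin (Sele), an inducible leukocyte receptor, was at 4.66 and 4.42 against 6.68 and 7.81, while Alcam, an adhesion molecule that melanoma cells also carry, was at 8.04 and 7.78 against 6.71 and 4.51. Nitric oxide, endothelin and prostanoid genes gave 7 of 14 and coagulation genes 3 of 13.

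BMP and TGF-beta genes gave 14 of 21, with medians of -1.48 and -1.53. The coreceptor endoglin (Eng) was at 9.73 and 10.17 against 11.46 and 11.82, and Id1, a direct BMP target, at 7.08 and 8.18 against 9.34 and 9.86. The ligand Bmp6 was at 5.21 and 5.81 against 6.79 and 9.19. Each was higher on both endothelial-rich arrays, with expansion A the lowest of the 4. The ligand Tgfb1, at 7.50 and 5.59 against 6.80 and 5.92, had opposite directions in the tumors.

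Most fibroblast matrix genes were higher on the endothelial-rich arrays, by less than 2-fold for many. Of 22 fibroblast collagens and matrix genes 5 (22.7%, beside 5.65% of all genes) were in the endothelial-rich group (Lum, Pdgfra, Fap, Loxl1 and Fbln2), and 21 of 22 had that direction in both tumors. Col1a2, a chain of type I collagen, was at 14.50 and 14.60 against 14.85 and 14.91, a small difference without overlap. The fibroblast receptor Pdgfra was at 10.08 and 11.17 against 11.90 and 12.80. Pericyte and smooth muscle genes gave 1 of 15, the potassium channel regulator Abcc9, and all 15 were higher on extinction A than on expansion B. All 28 mitosis genes had that order too, and its share over all genes was not counted. The pericyte receptor Pdgfrb was at 12.62 and 12.49 against 13.71 and 13.12. Basement membrane genes gave 1 of 14, the laminin Lamb2, though all 14 had that direction in both tumors.

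Further matrix and secreted genes of the endothelial-rich group were picked after their values were seen, for their size. The small leucine-rich proteoglycan Fmod was at 7.56 and 7.81 against 10.31 and 13.11, and its relatives Ogn and Prelp had mean differences of -2.39 and -2.32. The BMP antagonist Chrdl1 was at 5.47 and 6.95 against 8.83 and 10.42, and the TGF-beta family member Gdf10 at 5.89 and 6.75 against 8.82 and 10.87. Smoc2, Abi3bp, Svep1, Sfrp4 and Col14a1 had mean differences of -2.97, -2.70, -2.24, -2.39 and -2.03. Igfbp5, which binds insulin-like growth factors, was at 7.02 and 7.34 against 10.46 and 10.40 on the probe set used. Its other probe set did not differ in this way, at 6.80 and 6.72 against 6.72 and 6.77, above the median of all probe sets. The cartilage matrix gene Cilp was at 8.68 and 8.44 against 11.05 and 10.75, and the secreted lectin Clec11a at 7.76 and 7.13 against 10.38 and 10.26. Extinction A was the highest array for Igfbp5, Cilp and Clec11a, and expansion B for the others of these genes.

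Antigen presentation and interferon genes were also higher on the endothelial-rich arrays, in 8 of 13 and 14 of 25 genes. The class I heavy chain H2-K1 was at 11.63 and 12.19 against 12.80 and 13.48, and its light chain B2m at 13.55 and 13.74 against 14.27 and 14.40. The immunoproteasome subunit Psmb8 was at 8.13 and 9.30 against 10.32 and 11.02. All 25 interferon genes had that direction in both tumors (7180 of all 18193 genes did), with medians of -1.35 and -1.19. Of the 25, 24 were lower on expansion A than on extinction B. The factor Irf1 was at 10.89 and 11.03 against 12.34 and 12.94. In families picked after the values were seen, 5 of 6 Gbp genes, 4 of 4 Irgm and Igtp GTPases and 5 of 8 Gimap genes were in the endothelial-rich group. Gimap4, of a family of immune-associated GTPases, was at 8.82 and 9.97 against 11.39 and 11.48.

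Complement genes gave 4 of 10 and chemokines 5 of 15. Cxcl12, a stromal chemokine, was at 10.14 and 11.62 against 12.43 and 13.11. Ccl5, a T cell chemokine, was the one chemokine higher on the melanoma-rich arrays, at 7.64 and 9.04 against 6.55 and 6.06. Immediate early genes, which answer growth signals and stress, gave 7 of 15, and all 15 had that direction in both tumors. Egr2 was at 8.40 and 9.35 against 10.76 and 10.52. Integrins were on both sides, with Itga8 at 4.49 and 4.20 against 7.02 and 6.92 and the leukocyte and melanoma integrin Itga4 at 8.27 and 7.40 against 6.55 and 6.05.

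Y chromosome genes went with the endothelial-rich arrays on the probe set used for each. Eif2s3y was at 6.77 and 7.71 against 8.83 and 9.13 and Kdm5d at 4.86 and 5.09 against 6.79 and 7.11. Their other probe sets had small or opposite differences: -0.27 and 0.09 for Eif2s3y, and 0.43 and 0.09 and then -0.20 and -0.20 for Kdm5d. All of those lay under the median of all probe sets on every array, as did both low levels of Kdm5d. Uty was at 4.49 and 5.57 against 6.05 and 6.16, in the same direction but under 2-fold in tumor B. Xist, made from the inactive X chromosome, was between 5.39 and 5.60 on all 4 arrays, under the median of all probe sets. Among tumor suppressors Cdkn2a was between 4.29 and 4.47 on all 4. Of 33 Hox genes measured, 6 were in the endothelial-rich group and 0 in the other, a family also picked after its values were seen, with Hoxd9 at 6.62 and 6.19 against 8.30 and 8.14.

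**Figure D4:**
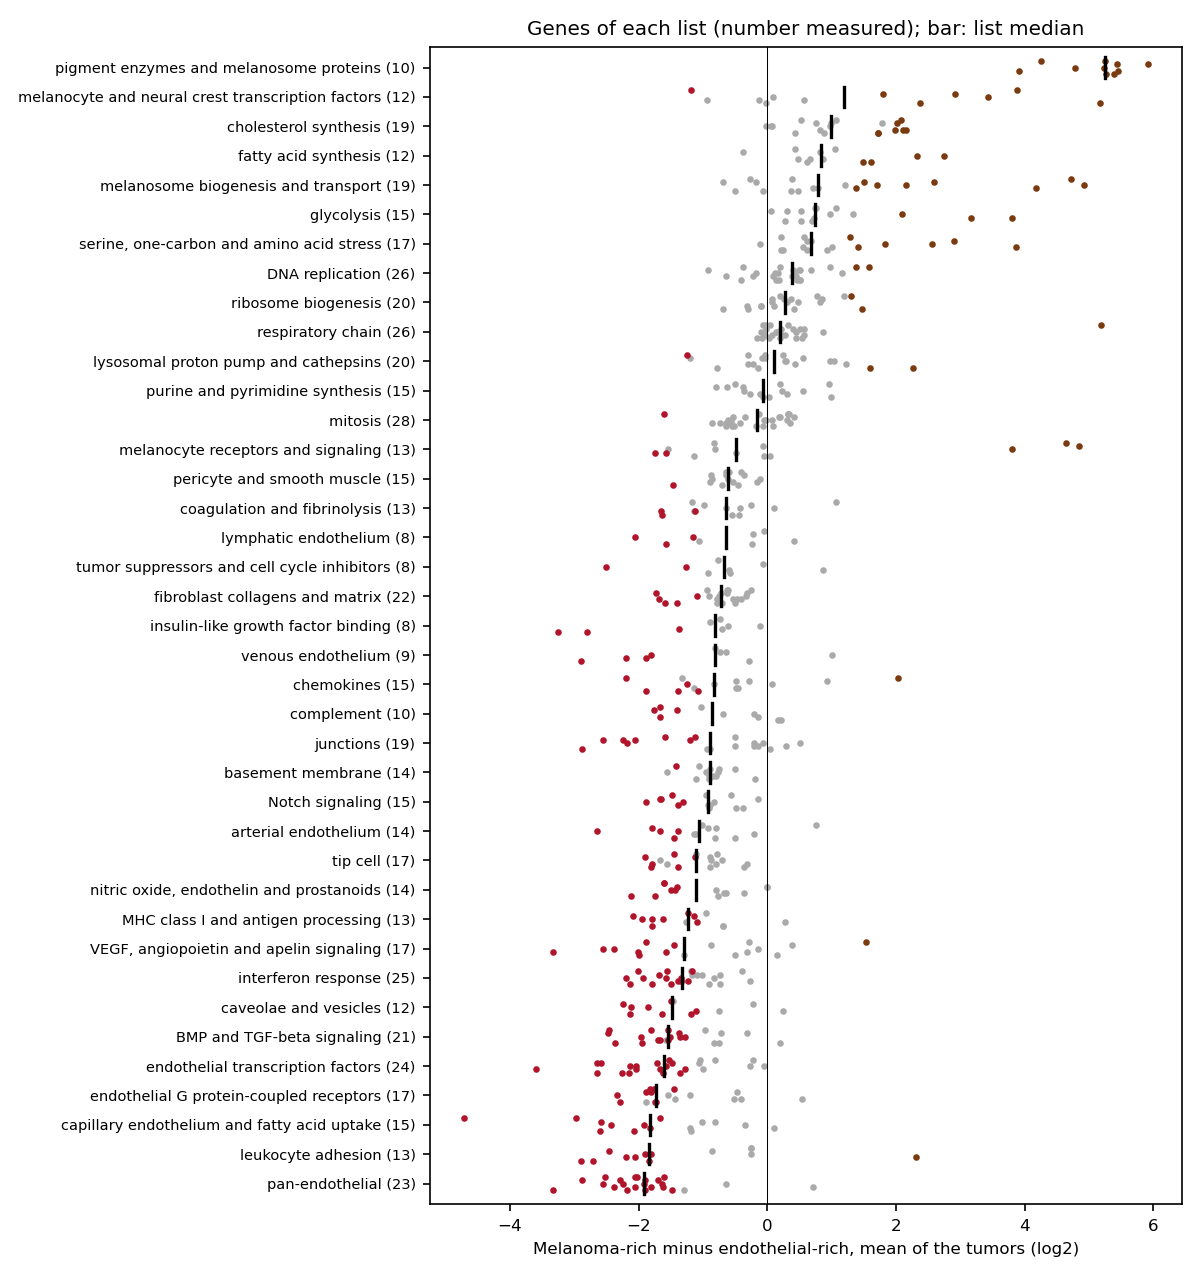
Melanoma-rich minus endothelial-rich log2 difference, mean of both tumors (x axis), for each measured gene of 39 lists (y axis, number measured in brackets), with brown and red points for genes 2-fold apart in both tumors, grey points for the rest and a black bar at the list's median. The pigment list lies at the right (median 5.26), the mitosis and purine lists near the middle (medians -0.15 and -0.07), and the pan-endothelial list at the left (median -1.92).

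Markers of other cells were looked at for the same arrays. The summed linear signal of the 10 macrophage markers, as log2, was 9.49 and 10.68 on the melanoma-rich arrays and 11.12 and 11.70 on the endothelial-rich arrays, moved mainly by Cd14, the 1 of 10 in the endothelial-rich group, at 7.67 and 8.74 against 10.20 and 11.06, and by Csf1r. Adgre1, Itgam, Mrc1 and the C1q genes, a part of that list, stayed at or under 5.48 on all arrays. Of the 10 markers 4 were higher on the endothelial-rich array in both tumors and 2 on the melanoma-rich array. CD45 (Ptprc), the marker sorted against, lay between 3.63 and 4.27. The T and NK, B, dendritic, neutrophil, erythroid and platelet lists held 0 genes 2-fold apart in both tumors, and their summed levels spanned 8.52 to 8.67, 6.93 to 7.07, 7.35 to 7.72, 6.71 to 6.91, 7.39 to 7.74 and 8.55 to 9.37. Fibroblast markers had summed levels of 16.15 and 16.38 against 16.74 and 16.88, and pericyte genes 15.19 and 14.84 against 15.87 and 15.20, with 9 of 10 fibroblast markers higher on the endothelial-rich array in both tumors and 3 of 10 in that group. The part of the macrophage, fibroblast and pericyte markers in the endothelial-rich genes was not tested. The keratinocyte list gave 1 of 8, the keratin Krt10, at 6.16 and 6.46 against 7.50 and 8.49, and the skeletal muscle list 0 of 5. The Schwann list gave S100b on the melanoma-rich side and Egr2 on the other. The adipocyte genes Adipoq and Car3 were high on expansion B, at 6.78 and 11.49, against at most 3.78 and 6.46 elsewhere, and their part in the capillary genes was not tested.

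RNA and hybridization controls moved with the sides in part. Ribosomal 18S RNA was at 11.64 and 11.86 (mean of its 3 probe sets) on the melanoma-rich arrays and 10.77 and 11.10 on the endothelial-rich arrays, and the 5′ ends of the polyadenylated spike-ins 10.27 and 11.30 against 9.62 and 10.17. Differences at their 3′ ends were 0.05 and 0.37 (tumor A first), and those of the hybridization controls -0.14 and 0.77, in opposite directions. The Actb 3′ minus 5′ difference was 2.81 and 2.68 against 2.18 and 2.72, and that of Gapdh differed by 0.09 and -0.31 between the sides. The part of these controls in the differences above was not tested.

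Other probe sets of the same genes, which the rule did not use but which read the same RNA, were compared as a check on the choice of probe set. For genes higher on the melanoma-rich arrays 384 of 571 had 837 further probe sets, and 254 of these (30.3%) were at least 2-fold apart in the same direction in both tumors, 596 had the same direction and 72 the opposite one. For the 1027 genes, 596 had 1109 further probe sets, with 323 (29.1%) at 2-fold, 814 in the same direction and 94 opposite. Among those at or above the median level 44.2% and 50.1% were at 2-fold. In 1 melanoma-rich and 5 endothelial-rich genes another probe set was 2-fold the other way in both tumors.

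The choice of sides did not use the contrasts of clone classes and tumors, but the 2-fold rule limits the clone difference of each gene it picks. By construction a gene 2-fold apart in both pairs has opposite clone differences in the 2 tumors, so the difference between the sides enters its spread in these tests. limma with Benjamini-Hochberg adjustment over 45037 probe sets called 0 (0%) between expansion and extinction, with 469 (1.04%) at an unadjusted p under 0.05, none of them for the 1598 genes. Between the tumors it also called 0 (0%), with 648 (1.44%) at an unadjusted p under 0.05, of which 3 were for the 1598 genes. With the side as a term, which takes its difference out of the spread, limma still called 0 in both contrasts, and at an unadjusted p under 0.05 the 1598 genes numbered 62 (3.88%) between classes and 486 (30.4%) between tumors. Over all probe sets these shares were 3.20% and 6.50%. With the side as a term, the spread in the tumor test is the clone difference, which the 2-fold rule limits for the 1598 genes. In the class test the rule limits the tested difference itself. The shares of the 1598 genes and of all probe sets are therefore not comparable.

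Of the 1598 genes, the 6 with the largest tumor differences of the same sign in both classes were all in the endothelial-rich group and higher in tumor B. Cxcl13, a B cell chemokine, was at 5.89 and 12.31 in expansion (tumor A, then B) and at 9.96 and 10.46 in extinction. Its tumor difference was 3.46 ± 1.70 (SE, n = 2 per tumor), with 6.42 in expansion and 0.50 in extinction, so expansion A and expansion B set it. The ferritin receptor Scara5, the semaphorin Sema3c, the iron-siderophore binding lipocalin Lcn2, the peptidase inhibitor Pi16 and the fibulin-like Efemp1 differed by 2.79, 2.48, 2.45, 2.38 and 2.35. None was called (adjusted p = 1 by limma, and 0.766 with the side as a term, for each of the 6).

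Levels within a side also differed. Of the 571 genes 431 were higher on expansion A than on extinction B, by a median of 0.31, and 364 were higher on extinction A than on expansion B, by a median of 0.15. Of the 1027 genes 222 were higher on expansion A than on extinction B and 238 higher on extinction A than on expansion B, with medians of -0.44 and -0.41. Expansion A thus had the highest median level of the melanoma-rich genes, 9.55, and the lowest of the endothelial-rich genes, 7.20. Expansion B had the reverse, 6.99 and 9.56. The medians on extinction A were 7.19 and 8.98 and on extinction B 9.17 and 7.76, between those of the other arrays on both counts.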

How the data were processed

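Gene expression was measured on 4 Affymetrix Mouse430_2 arrays of sorted tumor vessel cells. TRIzol extraction, 2 rounds of amplification and biotin labelling preceded hybridization, per the labels' protocols. The deposited values are log2 levels that the authors made with affy and RMA according to the labels (per the submitters' processing notes); the sources used here give no versions. RMA ties each array's values to the others, and amplification favours 3′ ends.

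The table held 45101 probe sets, and 45037 were tested after 64 controls were removed. Of these, 34945 had 1 gene symbol in the platform annotation, 932 several and 9160 were not listed. Gene IDs of 34741 matched RefSeq (GRCm38.p6), which changed 0 symbols. Each of 18193 genes was represented by its brightest probe set (by mean of the 4 arrays), and 9010 had several.

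Groups came from the labels and sides from the rule given in the report. The members and lists were chosen with earlier results of these data known. Of 718 list genes in 56 lists 670 were measured, 4 by a synonym, and 48 were not analysed here. Of the 1598 genes 224 were on a list. Named were the 25 genes of each side with the largest smaller pair difference and a high-side mean of at least the median probe set level (5.83; no clone names), up to 4 per list, the 3 nearest the threshold on either side, genes set by name, and the 6 largest tumor differences. Other genes of a list shown for contrast, and families or genes said to be picked, were chosen after their values were seen.

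limma 3.58.1 under R 4.3.3 compared the clone classes and the tumors (lmFit, eBayes, two-sided, Benjamini-Hochberg, threshold 0.05) on 2 arrays per group; the step was tested on simulated data. p-values measure only the spread between these arrays. The replicate number marks the tumor, so the labels pair the arrays; after subtracting class means, arrays of 1 tumor correlated at r = -0.661 across 18193 genes, which are not independent replicates. Alternatives were averaging each gene's probe sets, quantile normalization again, array medians subtracted, only bright genes, 1.5-fold and 4-fold thresholds, other pairs of arrays, tumor as a replicate block, clone class or side as a term, robust eBayes with trend, and leaving out each array.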

Additional observations from a re-analysis of the deposited data

Results flagged for a closer look

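Genes whose clone difference ran one way in tumor A and the opposite way in tumor B stood out, and with 1 array per class and tumor that difference between the tumors was not tested. This is the pattern the choice of sides used. It held for the 571 genes higher on the melanoma-rich arrays and the 1027 higher on the endothelial-rich arrays. Lists with at least 50% of their measured genes in 1 of these groups, each given by its median of melanoma-rich minus endothelial-rich on the log2 scale, were pigment enzymes and melanosome proteins (5.26) and melanocyte transcription factors (1.19). The others went toward the endothelial-rich arrays: pan-endothelial genes (-1.92), endothelial transcription factors (-1.60), capillary genes (-1.83), G protein-coupled receptors (-1.73), leukocyte adhesion (-1.84), caveolae (-1.48), nitric oxide, endothelin and prostanoids (-1.10), BMP and TGF-beta signaling (-1.55), MHC class I (-1.23), interferon response (-1.33) and the sex chromosome genes (-1.40).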

How the results depend on the processing

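The counts of genes higher on the melanoma-rich (571) and endothelial-rich arrays (1027) moved by over 1.5 times with the fold threshold, to 1224 and 2085 at 1.5-fold and to 189 and 140 at 4-fold. Asking for 2-fold in all 4 pairs across the sides left 631 endothelial-rich genes. Without 1 array, which leaves 1 within-tumor pair, the counts ranged from 867 to 1072 and from 1761 to 1897: 867 and 1761 without expansion A or extinction A, 1072 and 1897 without expansion B or extinction B. Averaging a gene's probe sets gave 466 and 749, with 379 and 699 of the reported genes among them. The median of the adipocyte list (-1.19) ranged from -1.58 without extinction A to 0.0030 without expansion B, where its sign turned. Lists with a median of at least 1 in size numbered 20, between 14 and 22 under the other settings and between 15 and 26 without 1 array. With tumor as a replicate block limma called 0 probe sets between the clone classes, and it also called 0 under every other alternative run for clone classes and tumors. The crossed pairing, which is the side as a term, called 0. With 2 arrays per group, 1 array per pair and no depth, small differences and those of dim probe sets cannot be resolved.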
